A study of Mus musculus with 2 samples.

Results

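The Hox genes of the 4 mouse clusters were compared between embryonic stem (ES) cells before and after differentiation with retinoic acid. The members were the rows whose symbol is HOXA, HOXB, HOXC or HOXD followed by a paralogue number, in any letter case. This matched 38 of the 34376 rows of the gene table: 11 genes of the Hoxa, 10 of the Hoxb, 9 of the Hoxc and 8 of the Hoxd cluster. These genes have 67 rows among promoters and 83 among transcripts. Hoxd12 is not analysed here.

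Both samples were E14 ES cells, a line of strain 129P2/OlaHsd, at passage 29. The undifferentiated cells were cultured on mitomycin C treated mouse embryonic fibroblasts with leukaemia inhibitory factor and 15% fetal bovine serum, and the fibroblasts were removed by adsorption before collection, to an estimated residue below 0.25%. The differentiated cells came from such cells, replated on gelatin without feeder cells or the factor and kept for 4.5 days with 0.1 µM all-trans retinoic acid in 10% serum. The labels call the result a mixed population. Each state is 1 library of 1 culture, sequenced on 2 lanes, so no difference below has a replicate culture behind it and none was tested. Values after ± are lane SDs (n = 2), and so describe sequencing and read assignment only.

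Hox genes encode homeodomain transcription factors that give cells their position along the head-to-tail axis. Within a cluster the genes lie in the order in which they are used: low-numbered genes at the 3′ end are switched on first and act in the hindbrain, high-numbered genes at the 5′ end come later and act in the trunk, limbs and tail. Genes at the same place in different clusters form a paralogue group and have similar homeodomains. Retinoic acid, through nuclear receptors on DNA, is a known inducer of the 3′ genes, and in undifferentiated ES cells the clusters are known targets of Polycomb repression.

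Upstream sequences are shown for 5 genes because their levels recur below and because they hold the letters in question. RefSeq (GRCm38.p6) gave 23 start sites for 21 of the 38 genes, and the 250 bases before each start were read 5′ to 3′ on the strand of the gene. In Hoxb1, Hoxa2 and Hoxb8 the capitals mark TGATNNAT, the form of a joint site for HOX and PBX proteins. In Hoxb4 they mark AGGTCA, the half-site of nuclear receptors, and in Hoxa5 every CG. Matches may lie on either strand and overlapped no other motif searched in these 5 sequences.
Hoxb1 (GRCm38.p6 chr11:96365508-96365757, plus strand): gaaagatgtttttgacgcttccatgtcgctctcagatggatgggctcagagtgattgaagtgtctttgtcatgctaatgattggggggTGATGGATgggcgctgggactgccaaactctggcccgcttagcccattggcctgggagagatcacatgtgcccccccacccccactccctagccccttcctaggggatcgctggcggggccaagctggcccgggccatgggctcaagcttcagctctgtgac
Hoxa2 (GRCm38.p6 chr6:52164832-52165081, minus strand): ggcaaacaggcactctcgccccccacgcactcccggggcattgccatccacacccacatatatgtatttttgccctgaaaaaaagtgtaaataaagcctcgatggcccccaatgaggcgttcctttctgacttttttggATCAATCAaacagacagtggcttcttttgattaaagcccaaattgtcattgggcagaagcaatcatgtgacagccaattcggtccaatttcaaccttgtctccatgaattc
Hoxb8 (GRCm38.p6 chr11:96281655-96281904, plus strand): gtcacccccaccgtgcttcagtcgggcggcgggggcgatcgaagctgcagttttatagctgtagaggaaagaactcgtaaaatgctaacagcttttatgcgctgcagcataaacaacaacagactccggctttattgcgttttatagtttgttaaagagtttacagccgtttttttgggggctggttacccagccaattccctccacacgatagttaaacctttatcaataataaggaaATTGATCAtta
Hoxb4 (GRCm38.p6 chr11:96318017-96318266, plus strand): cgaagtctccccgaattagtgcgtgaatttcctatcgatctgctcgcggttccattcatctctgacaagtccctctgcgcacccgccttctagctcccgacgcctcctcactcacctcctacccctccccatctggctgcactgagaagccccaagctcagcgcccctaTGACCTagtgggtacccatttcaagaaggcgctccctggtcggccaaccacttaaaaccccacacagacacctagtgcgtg
Hoxa5 (GRCm38.p6 chr6:52204588-52204837, minus strand): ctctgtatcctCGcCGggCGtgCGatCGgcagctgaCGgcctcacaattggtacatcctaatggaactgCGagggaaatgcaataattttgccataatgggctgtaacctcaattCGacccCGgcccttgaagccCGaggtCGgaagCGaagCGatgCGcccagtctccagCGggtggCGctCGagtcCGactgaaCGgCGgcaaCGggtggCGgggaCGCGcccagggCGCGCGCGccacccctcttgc

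The TGATNNAT match began 162 bases before the start in Hoxb1, 111 in Hoxa2 and 11 in Hoxb8. The region upstream of Hoxb1 is known for an autoregulatory element on which HOX and PBX proteins bind. Among the 23 Hox windows, 4 held TGATNNAT (the other one is at Hoxd11), against 7.68% of all 32851 RefSeq windows of this length. AGGTCA was found in 6 Hox windows, those of Hoxb4 (81 bases before the start), Hoxc4, Hoxd3, Hoxd4, Hoxd8 and Hoxd10, and in 14.02% of all windows. The windows of Hoxd3, Hoxd4 and Hoxd8 precede promoters that gave 26.0%, 35.1% and 1.69% of the gene's differentiated level. That of Hoxc4 precedes a promoter with 94.7%, and Hoxb4 and Hoxd10 have a single promoter row. CCAAT was present in 13 Hox windows and in 33.8% of all, and TATAAA in 4 and 12.4%. Hox windows held a median of 13 CG (range 2 to 35), and all windows a median of 6. The median was 8 in the 7 Hox windows whose promoter reached 1 RPKM (defined below) after differentiation. In the 16 under it the median was 15.5. Hoxa5 held 28, the most of those 7. These matches describe letters and show no binding.

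Expression is given as RPKM, reads scaled to the length of the model and the total of the lane. The differentiated level of each Hox gene equalled the sum of its transcript rows, and 20 of the 38 genes had several. Levels of genes with several rows are therefore not on quite the same footing as those of genes with 1. Log2 ratios compare RPKM + 1 after differentiation with RPKM + 1 before it, so the added 1 shrinks the ratios of low genes. A gene was at the floor with 1 RPKM or more in either library, and was called higher or lower when the RPKM + 1 values differed at least 2-fold. One RPKM in a model of 1 kb stood for about 31.9 to 37.8 reads of a lane, and 1 read in a 2 kb model for 0.0132 to 0.0157 RPKM. Known genes followed the labels: Pou5f1, the pluripotency factor Oct4, had 692 ± 9.001 RPKM before differentiation and 29.5 ± 0.295 after, and Cyp26a1, the enzyme that degrades retinoic acid, at 0.700 ± 0.120 and 253 ± 16.2.

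The Hox genes were low or at 0 before differentiation, and most were higher after it, at modest levels. Their summed level was 6.40 ± 0.0525 RPKM before and 93.3 ± 4.62 RPKM after, 14.6-fold higher. Before differentiation every Hox gene averaged under 1 RPKM, and Hoxa6, Hoxb5, Hoxc5, Hoxc6, Hoxc11 and Hoxd3 were at 0 in both undifferentiated lanes. In the differentiated library 24 of 38 were at the floor. Among all 18360 genes under 1 RPKM before differentiation, 10.9% reached it after. Of the 24 Hox genes at the floor, 20 were at least 2-fold higher and none was lower, and Hoxa10, Hoxb3, Hoxb13 and Hoxc13 lay between. The share of genes at least 2-fold higher was 19.1% among all 18019 genes at the floor, and 54.5% among the 2003 that passed it only through the differentiated library, as all 24 Hox genes did. The median log2 ratio was 1.20 over all 38 Hox genes and 0.02 over all genes in the table. Both differentiated lanes lay above both undifferentiated lanes in 36 of 38 Hox genes, against 37.1% of all genes. The exceptions were Hoxc12 and Hoxd13.

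**Figure D1:**
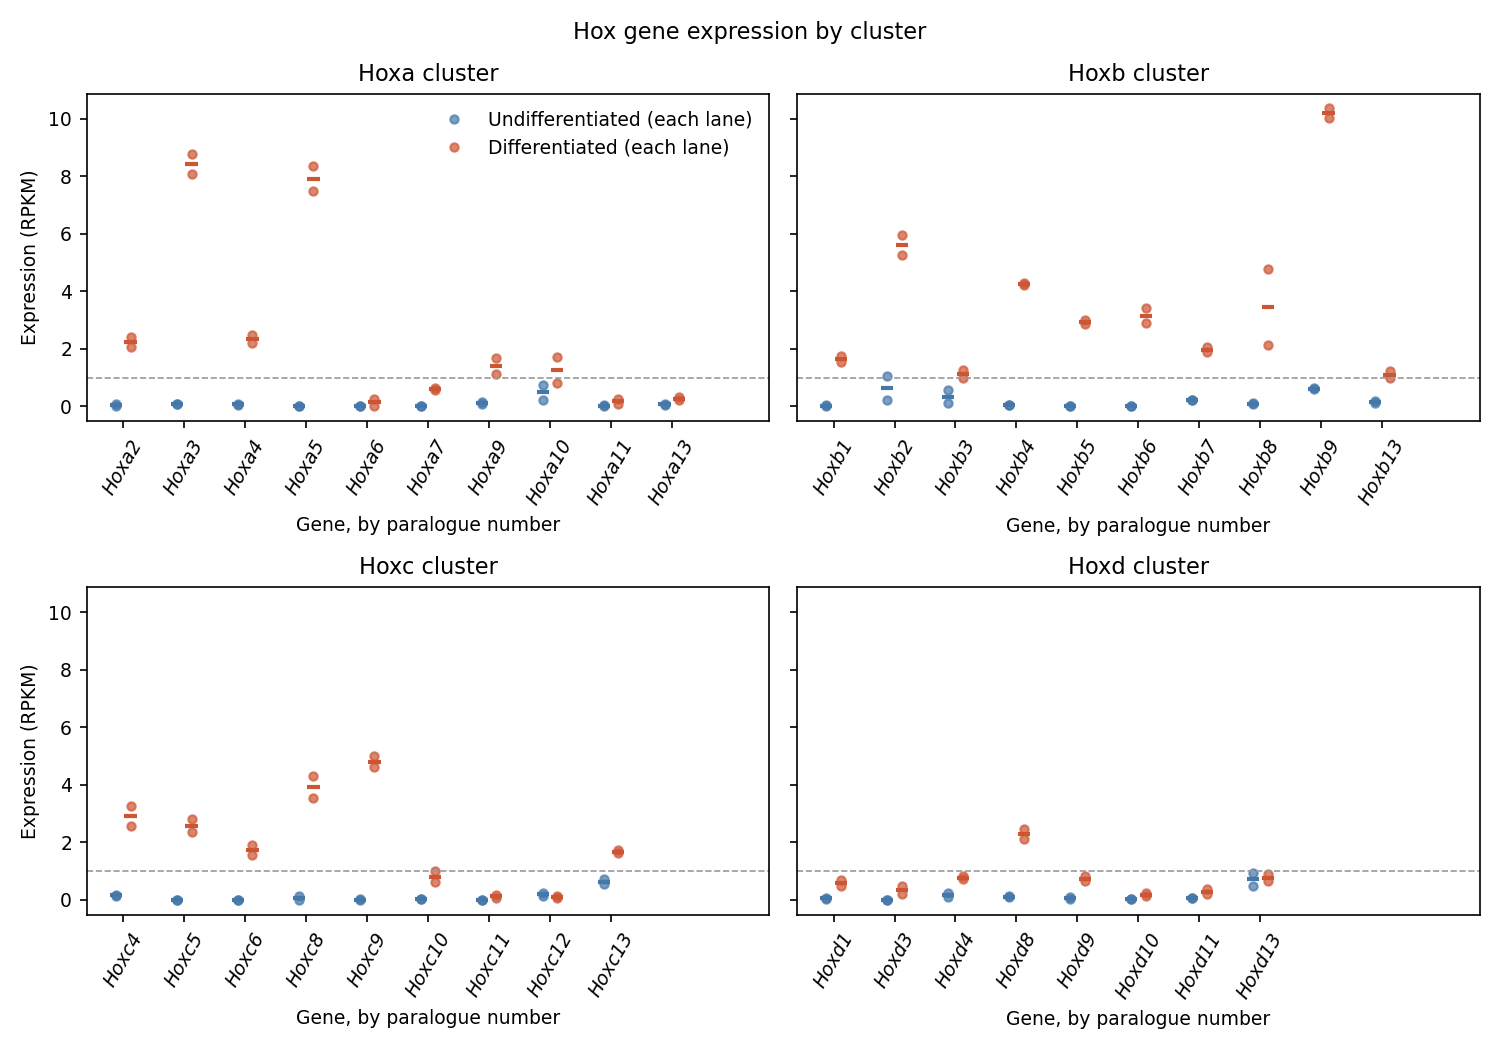
RPKM of the Hox genes shown in each lane (points) and the lane mean (bars), for the undifferentiated (blue) and differentiated (orange) library, by cluster and paralogue number; the dashed line marks the floor of 1 RPKM. All undifferentiated means lie under 1 RPKM, and the tall differentiated means include Hoxb9 at 10.2, Hoxa3 at 8.43 and Hoxa5 at 7.93 RPKM.

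In the Hoxa cluster (mm9 chromosome 6, minus strand, 105.5 kb) the highest levels lay at the 3′ end. Hoxa2, Hoxa3, Hoxa4 and Hoxa5 were all at least 2-fold higher. Hoxa3 (52119061 to 52163335), which acts in the hindbrain and pharyngeal arches, read 0.0781 and 0.0808 RPKM in the lanes before and 8.77 and 8.08 in those after (log2 ratio 3.13). Hoxa5 (52151753 to 52154586), which acts in the lung and the cervical skeleton, stood at 0.0331 and 0.0257 RPKM before and 7.49 and 8.36 after (3.12). The differentiated level of Hoxa3 was a sum over 7 transcript rows, the highest at 3.32 RPKM, while Hoxa5 had 1 row. Lower were Hoxa2, which patterns the pharyngeal arches, at 2.24 ± 0.230 RPKM, and Hoxa4, a gene of the cervical skeleton, at 2.34 ± 0.177.

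Past Hoxa5 the Hoxa levels were lower. Hoxa6 was at 0.142 ± 0.177 RPKM in the differentiated library and Hoxa7 at 0.609 ± 0.0586, both under the floor. Hoxa9, a trunk gene known also from leukaemia, stood at 0.121 ± 0.0628 and 1.42 ± 0.402 RPKM, and its log2 ratio was 0.87 in lane 1 and 1.33 in lane 2, so that its call of 2-fold rested on lane 2. Hoxa10 (52181196 to 52190853), a gene of the lumbar skeleton and uterus, read 0.243 and 0.761 RPKM in the lanes before differentiation. After it the lanes read 0.832 and 1.72, above both earlier values but with a log2 ratio of 0.60. Hoxa11 and Hoxa13, which act in limbs and the urogenital tract, reached only 0.182 ± 0.130 and 0.275 ± 0.0720 RPKM.

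All 10 Hoxb genes reached the floor in the differentiated library, the only cluster of the 4 where every gene did. The cluster (mm9 chromosome 11, 96055630 to 96229570, plus strand, 173.9 kb) summed to 2.19 ± 0.214 RPKM before and 35.5 ± 1.27 after. In it 8 genes were at least 2-fold higher, against 54.5% of all genes that passed the floor only through the differentiated library. Hoxb9 (96132644 to 96137909), a thoracic gene, was the highest Hox gene of the differentiated library, with lanes at 0.632 and 0.618 RPKM before and 10.02 and 10.4 after (log2 ratio 2.78). Hoxb2 (96212946 to 96215330), a hindbrain gene, stood at 0.241 and 1.06 RPKM before and 5.97 and 5.26 after (2.00). The undifferentiated lanes of Hoxb2 were far apart, yet both lay below the differentiated ones. Hoxb4 (96179581 to 96182952), known for its effect on blood stem cells, stood at 0.0494 and 0.0688 RPKM before and 4.21 and 4.31 after (2.31).

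Levels did not run in one direction along the Hoxb cluster. Hoxb1, the marker of hindbrain rhombomere 4, was lower than most of its neighbours in the differentiated library, at 1.65 ± 0.143 RPKM against 0.0262 ± 0.0370 before. Hoxb5, Hoxb6 and Hoxb7 stood at 2.93 ± 0.117, 3.16 ± 0.384 and 1.98 ± 0.113 RPKM. Hoxb8 averaged 3.46, but its lanes read 4.78 and 2.15. Hoxb3 was at 1.14 ± 0.200 RPKM against 0.340 ± 0.327, with a log2 ratio of 0.35 in lane 1 and 1.04 in lane 2. Hoxb13 (96055630 to 96058761), a tail and prostate gene that lies apart at the 5′ end, stood at 0.181 and 0.131 RPKM before and 1.24 and 0.982 after (0.87).

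The Hoxc cluster (mm9 chromosome 15, 102751562 to 102867283, plus strand, 115.7 kb) has no paralogue of groups 1 to 3. Its 5 genes from Hoxc4 to Hoxc9 were all at least 2-fold higher, and its summed level went from 1.13 ± 0.0672 to 18.7 ± 1.03 RPKM. Hoxc9 (102807463 to 102814875), a thoracic gene of motor neuron identity, read 0.0241 and 0 RPKM in the lanes before and 4.62 and 4.99 in those after (log2 ratio 2.52). Hoxc8 (102820970 to 102824685), which acts in brachial motor neurons and the thoracic skeleton, stood at 0.149 and 0 RPKM before and 3.55 and 4.32 after (2.20). Hoxc4 (102849367 to 102867283) stood at 0.177 and 0.136 RPKM before and 2.59 and 3.26 after (1.76). In these 3 genes the lanes of the 2 libraries lay well apart. Hoxc5 and Hoxc6, at 0 before, reached 2.58 ± 0.320 and 1.74 ± 0.226 RPKM.

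The 5′ part of the Hoxc cluster was under the floor except at its end. Hoxc10 was at 0.813 ± 0.255 RPKM in the differentiated library, Hoxc11 at 0.127 ± 0.0699 and Hoxc12 at 0.110 ± 0.0335. Hoxc12 (102767188 to 102769040), a gene of hair follicles, was the one Hox gene with a negative log2 ratio (-0.11), with 0.151 and 0.251 RPKM before and 0.0864 and 0.134 after, all far below 1 RPKM. Hoxc13 (102751562 to 102759245), which controls hair keratins, was the highest of the cluster before differentiation, at 0.547 and 0.738 RPKM, and stood at 1.73 and 1.63 after (0.70).

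After differentiation the Hoxd cluster had the lowest sum. The cluster (mm9 chromosome 2, 74506367 to 74603200, plus strand, 96.8 kb) summed to 1.22 ± 0.485 RPKM before and 6.01 ± 0.839 after, 4.94-fold higher, where the other 3 clusters were 16.2- to 17.7-fold higher. It held 19.0% of the summed Hox level in the undifferentiated library and 6.44% in the differentiated one. Hoxd8 (74542672 to 74545990) alone reached the floor and was at least 2-fold higher, with 0.127 and 0.0884 RPKM before and 2.45 and 2.11 after (log2 ratio 1.57). Hoxd13 (74506367 to 74509656), a gene of the digits and genitalia, was the highest of the cluster before differentiation, at 0.929 and 0.504 RPKM. Its mean of 0.717 RPKM was most of the cluster sum of 1.22. The cluster's fold and earlier share therefore rest in large part on this gene. Hoxd13 stood at 0.669 and 0.893 after, so the libraries overlapped (0.05). Hoxd4 (74560035 to 74567217), a gene of the caudal hindbrain and cervical spine, stood at 0.236 and 0.112 RPKM before and 0.828 and 0.724 after (0.60). The other 5, Hoxd1, Hoxd3, Hoxd9, Hoxd10 and Hoxd11, lay between 0.189 and 0.745 RPKM in the differentiated library.

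Arranged by paralogue number across clusters, calls of 2-fold were seen up to group 9. In groups 1 to 5, 11 of the 12 genes at the floor (of 15 in all) were at least 2-fold higher. In groups 6 to 9 this held for 9 of 9 (of 12). The share was 54.5% among all genes that passed the floor only through the differentiated library, as these did. In groups 10 to 13 only Hoxa10, Hoxb13 and Hoxc13 of 11 genes reached the floor, and none was 2-fold higher. That absence depends on the pseudocount: with 0.1 in place of 1 the log2 ratios were 1.19 for Hoxa10, 2.24 for Hoxb13 and 1.26 for Hoxc13, all past 2-fold, and their plain RPKM were 2.54-, 7.12- and 2.61-fold higher. The summed level of groups 10 to 13 was 2.45 ± 0.297 RPKM before and 6.83 ± 0.740 after. Their share of the Hox total was 38.3% before and 7.33% after. The earlier share rested mostly on Hoxd13, Hoxc13 and Hoxa10, at 0.717, 0.642 and 0.502 RPKM before differentiation. Median log2 ratios over all members were 1.76 for groups 1 to 5, 1.51 for groups 6 to 9 and 0.24 for groups 10 to 13.

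Members of one paralogue group were often at unlike levels. Group 9 had the largest sum in the differentiated library (17.2 ± 0.797 RPKM), of which Hoxb9 gave 10.2 and Hoxc9 4.81, while Hoxa9 and Hoxd9 stood at 1.42 and 0.745. In group 5, which summed to 13.4 ± 0.413, Hoxa5 was at 7.93, Hoxb5 at 2.93 and Hoxc5 at 2.58. In group 3 Hoxa3 was at 8.43, Hoxb3 at 1.14 and Hoxd3 at 0.348. Group 8 was the most even, with 3.94 for Hoxc8, 3.46 for Hoxb8 and 2.28 for Hoxd8. In order of level, the lanes of Hoxb9 lay above those of Hoxa3, the next gene. From Hoxb4, seventh at 4.26, down to Hoxa2, at 2.24, the lanes of each gene overlapped those of the next. The order of neighbours inside that range is therefore not resolved. Some genes further apart did separate: both lanes of Hoxb4 and of Hoxc8 lay above both lanes of Hoxb6 and of Hoxa2.

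**Figure D2:**
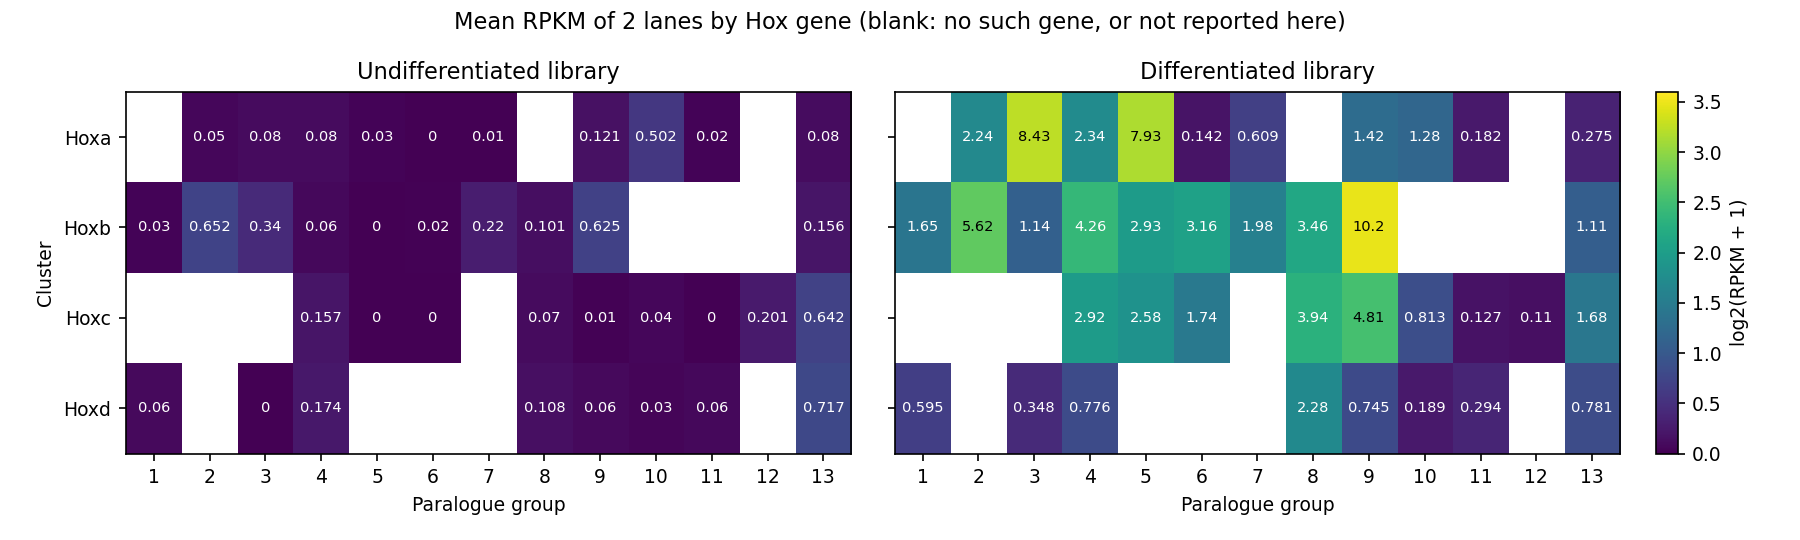
Mean RPKM of the 2 lanes for the Hox genes shown, arranged by cluster (rows) and paralogue group (columns), in the undifferentiated (left) and differentiated (right) library; colour is log2(RPKM + 1) on one scale for both. The bright cells of the differentiated library lie in groups 1 to 9 of Hoxa, Hoxb and Hoxc, and no gene of groups 10 to 13 exceeds 1.68 RPKM.

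By promoter, 21 of the 23 Hox rows at the floor were at least 2-fold higher and none was lower, where 20.2% of all 25933 promoter rows at the floor were higher. Every Hox row passed the floor only through the differentiated library, and of the 4399 promoter rows that did so 55.4% were higher. A promoter row is a group of transcripts assigned to one promoter, placed here at its most upstream start. Rows are numbered from the most upstream along the strand of the gene. Starts within a row can lie apart: the most downstream row of Hoxa9 joins starts at 52177369 and 52176150. Of the transcript rows, 20 of 23 at the floor were higher, against 20.2% of 34366 in all and 54.8% of the 7006 that passed the floor only after differentiation. Most Hox genes, 25 of 38, had a single promoter row. The other 13 had 42 rows, and in 7 of the 13 the same promoter was highest in both differentiated lanes. Read assignment between overlapping transcripts is the weak point of these rows.

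Hoxa3 had 7 promoters over 40.7 kb, and its expression came mostly from the downstream ones. The last, within the gene's 3′ part, gave 3.36 and 3.28 RPKM in the differentiated lanes, 38.3% and 40.6% of the gene, and was at 0 in both undifferentiated lanes. The fifth gave 2.71 and 2.09 RPKM and the second, 12.4 kb from the first and between Hoxa4 and Hoxa5, 1.25 and 2.04. The most upstream promoter, beyond Hoxa6, gave only 0.0378 and 0.105 RPKM, or 0.846% of the mean. All of the faint undifferentiated signal of Hoxa3 lay in the 3 most upstream promoters, 79.7% of it in the second.

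In 5 other genes at 1 RPKM or more, 1 promoter carried most of the differentiated level in both lanes. The second promoter of Hoxc4, 15.0 kb downstream of the first, gave 94.4% and 94.8% of the gene in the 2 lanes. The second promoter of Hoxd8, only 0.290 kb from the first, gave 97.0% and 99.9%. Hoxb7 used its first promoter for 100% and 81.8%, and Hoxa9 its most downstream one for 74.8% and 100%. Hoxb3 took 73.8% and 65.6% from its first promoter, 20.6 kb upstream of its last. Before differentiation that promoter gave 34.8% of the low Hoxb3 level.

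The remaining pair above 1 RPKM showed no settled leader. Hoxc6 was shared between its promoters, 10.8 kb apart, at 0.919 and 0.891 RPKM from the first and 0.978 and 0.686 from the second, and both were at 0 before. Hoxa10 was led by the first promoter in lane 1 (50.3%) and by the most downstream in lane 2 (60.8%). Under 1 RPKM, Hoxa7 kept its most downstream promoter on top in both lanes (76.4% and 59.2%), while in Hoxa6, Hoxd3, Hoxd4 and Hoxd11 the leading promoter differed between lanes and shares moved by 50.5 to 65.2 percentage points.

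**Figure D3:**
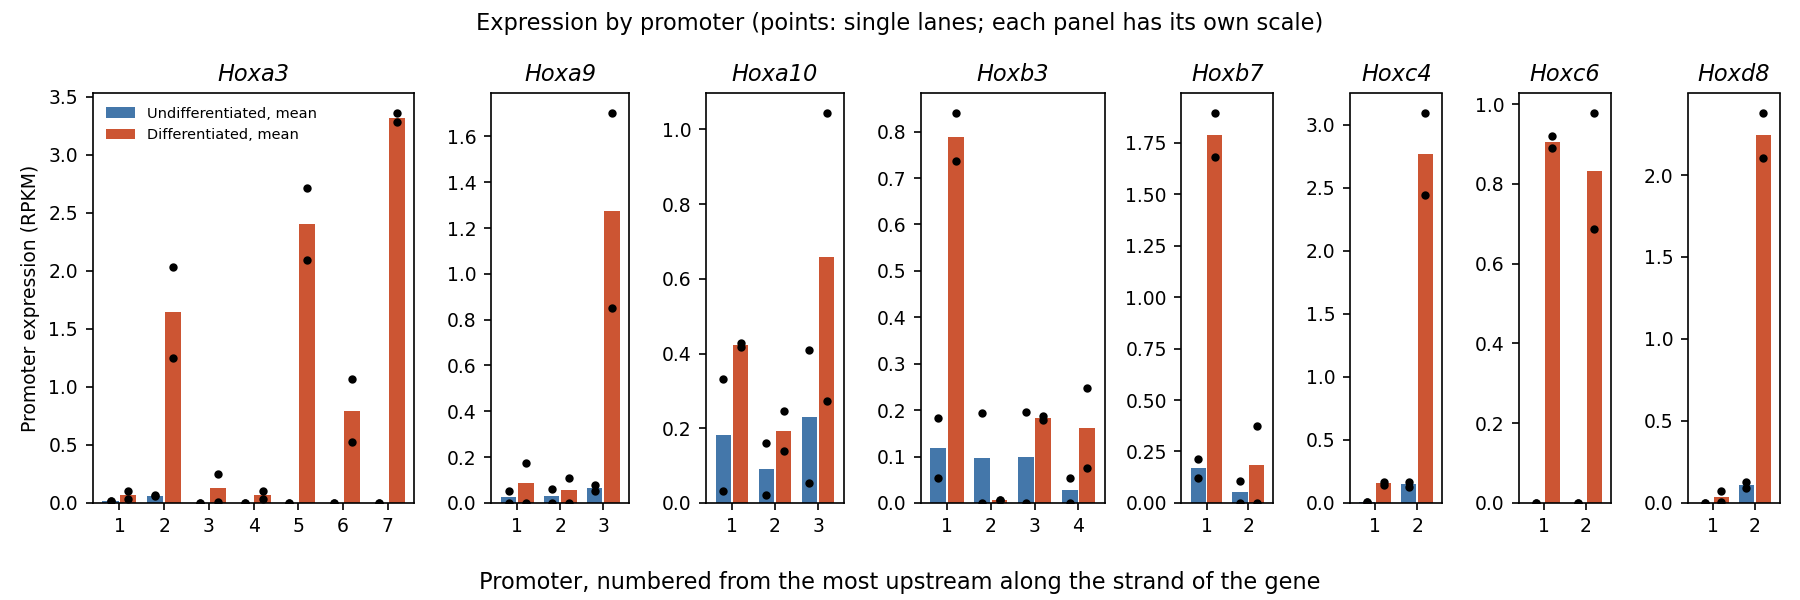
RPKM of each promoter of the 8 multi-promoter Hox genes that reach 1 RPKM, numbered from the most upstream: bars are means of 2 lanes, points single lanes, blue undifferentiated and orange differentiated, with a separate scale in each panel. Hoxc4 and Hoxd8 are carried by their second promoter, Hoxa3 by several, and the lanes of Hoxa10 differ widely.

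In 3 of the 4 clusters Hox gene models overlapped one another. Overlap was taken on whole spans, introns included, and overlap of exons was not examined. The library kit does not record the strand. Reads in exons shared by overlapping models, on either strand, therefore cannot be told apart, while reads outside shared exons can. Among the 38 genes, 10 overlapped another Hox model: Hoxa3 spans Hoxa4, Hoxa5 and Hoxa6, Hoxd3 spans Hoxd4, Hoxb7 overlaps Hoxb8 by 763 bases, and Hoxd10 overlaps Hoxd11 by 2304. A model of another gene on the opposite strand overlapped 14 Hox genes. The 19 genes that overlapped no other model held 38.4 of the 93.3 RPKM in the differentiated library, and 9 of the 12 at the floor were at least 2-fold higher, with a median log2 ratio of 0.87 over the 19. Hoxb9, Hoxb4, Hoxc8, Hoxc4, Hoxc5, Hoxc6, Hoxa2, Hoxb1 and Hoxa9 were those 9. Among all genes that passed the floor only through the differentiated library, 54.5% were higher.

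Most other models inside the clusters were higher too. Of 24 such models, 17 on the opposite strand, 22 had a higher mean in the differentiated library, as had 55.6% of all gene rows. Of the 8 at the floor 6 were at least 2-fold higher, against 19.1% of all genes at the floor and 54.5% of those that passed it only after differentiation. Some of the 8, such as RP23-85A17.4, were already at 1 RPKM before, so the 54.5% matches only part of them. ENSMUSG00000083337, a Hox-strand row between Hoxb13 and Hoxb9 and the highest of the 24, had a lower mean after. It stood at 725 ± 16.7 and 385 ± 2.08 RPKM (log2 ratio -0.91). HOXB3OS, opposite Hoxb2 and Hoxb3, was at 0 before and at 8.54 ± 1.06 after, above Hoxb3 itself. RP23-85A17.8, which spans Hoxb5 and Hoxb6 on the opposite strand, stood at 0.0572 ± 0.0808 and 4.41 ± 0.278 RPKM. RP23-103L13.10, opposite the stretch from Hoxa3 to Hoxa7, stood at 0.0390 ± 0.0297 and 1.55 ± 0.377. In the long gap between Hoxb9 and Hoxb13, RP23-85A17.4 on the Hox strand stood at 3.88 ± 0.497 and 15.1 ± 5.47 RPKM, more than Hoxb9. GM53, a model on the same strand over almost the same span, stood at 0.451 ± 0.608 and 1.23 ± 0.197 RPKM. How reads were divided between these 2 models was not examined. No model overlapping a Hox gene in the Hoxc or Hoxd cluster reached 1 RPKM.

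**Figure D4:**
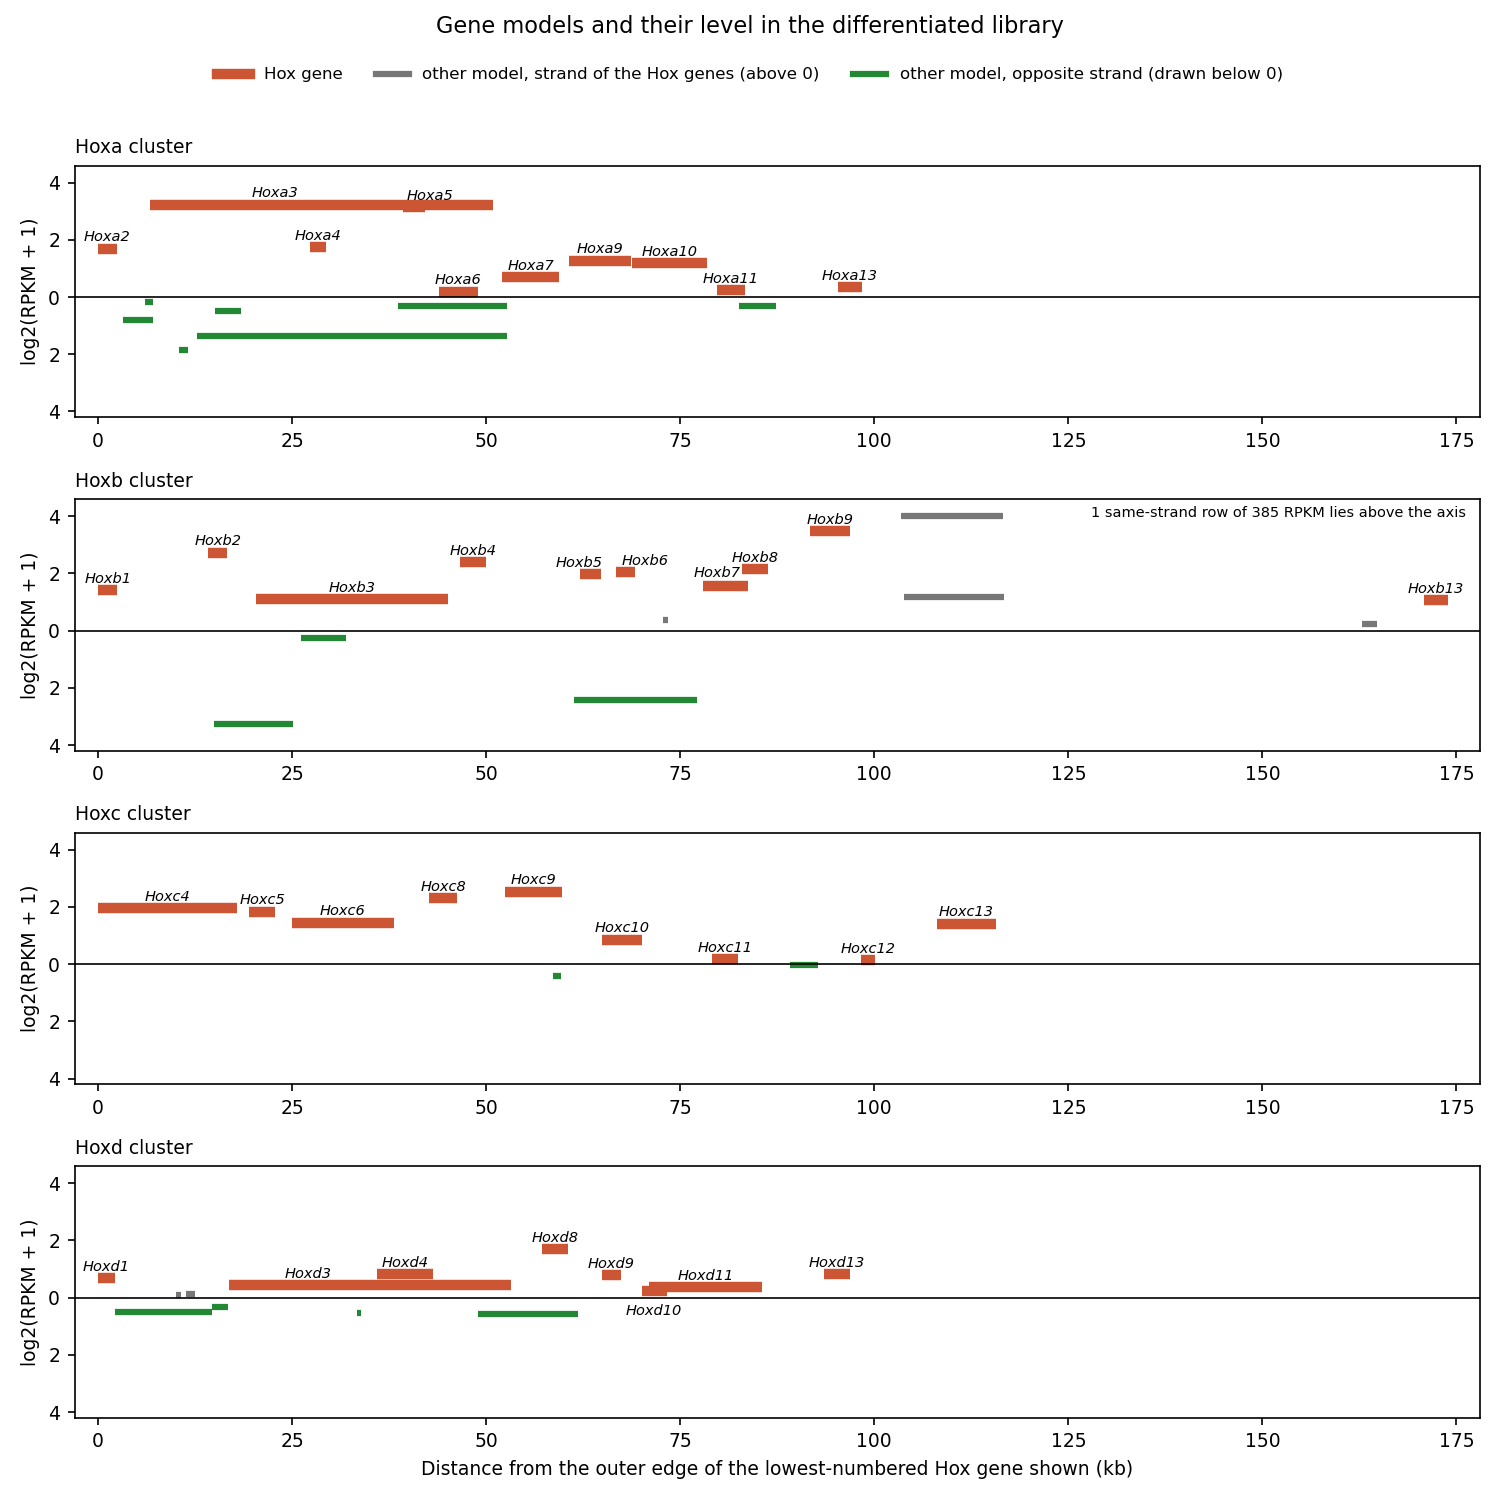
Hox genes (orange) and other models (grey on the same strand, green on the opposite strand and drawn below 0) of the 4 clusters by distance in kb from the outer edge of the lowest-numbered gene shown; the height is log2(RPKM + 1) in the differentiated library. Hoxa3 spans 3 other Hox genes, the opposite-strand model at Hoxb2 to Hoxb3 reaches 8.54 RPKM, and 1 row at 385 RPKM in the Hoxb cluster lies above the axis.

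Cofactors of HOX proteins were higher as well. The TALE homeodomain proteins of the PBX, MEIS and PKNOX families bind DNA together with HOX proteins. All 9 listed were at the floor, 7 at least 2-fold higher and none lower, with a median log2 ratio of 1.65. The call of Meis3 rested on lane 2: its differentiated lanes read 0 and 5.35 RPKM (log2 ratios -0.11 and 2.20). Pbx4, which lay between, had log2 ratios of 0.53 in lane 1 and -1.25 in lane 2. Among all genes at the floor 19.1% were higher and 8.46% lower, with a median of 0.12, the background for this and the following lists. Meis1 stood at 0.379 ± 0.00573 RPKM before and 33.6 ± 1.55 after, and Meis2 at 2.01 ± 0.690 and 45.7 ± 2.52. Both were above every Hox gene in the differentiated library.

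Among 13 known upstream factors of Hox genes, 8 were at the floor, 3 higher and 2 lower. Rarb, a retinoic acid receptor and itself a retinoic acid target, stood at 0.226 ± 0.0867 and 14.5 ± 1.31 RPKM. Rarg, the receptor most expressed before differentiation, went the other way, at 49.2 ± 1.09 and 12.2 ± 0.759. Gdf11, a signal for the switch to trunk and tail Hox genes, stood at 0.428 ± 0.337 and 4.32 ± 0.0970. The Cdx1, Cdx2 and Cdx4 genes, activators of trunk Hox genes, were under the floor in both libraries.

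Polycomb genes, whose products silence Hox clusters, went both ways: of 16 at the floor, 4 were higher, 4 lower and 8 between, a share of higher genes near that background. Phc1 stood at 179 ± 0.232 and 25.6 ± 1.98 RPKM, Phc2 at 7.10 ± 0.901 and 42.0 ± 0.0280, and Bmi1 at 1.64 ± 0.369 and 11.7 ± 1.10. Of 8 Trithorax group and associated genes, which keep Hox genes active or remove the Polycomb mark, 2 were higher and 1 lower. Wdr5 stood at 145 ± 0.713 and 35.7 ± 0.967 RPKM, Kdm6b at 16.4 ± 0.763 and 51.1 ± 1.37, and Ash1l at 4.05 ± 0.232 and 10.5 ± 0.501.

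Genes that flank the clusters did not pass 2-fold. Of 18 matched, 15 were at the floor and all 15 lay between. Their median log2 ratio was 0.09. The largest ratios were those of Atp5g1 (-0.93), Calcoco1 (0.91) and Snx11 (-0.87). Of 13 other homeobox genes, 4 were at the floor and only Dlx3, at 0.170 ± 0.0396 and 1.61 ± 0.0361 RPKM, was 2-fold higher. Next were Dlx2, with a log2 ratio of 0.98, and En2, with -0.50. Of 14 noncoding RNAs listed for the clusters 2 were matched, the Hoxa11 antisense RNA (0.0907 ± 0.128 and 0.244 ± 0.00504 RPKM) and Hoxaas3 (0.000728 ± 0.000349 and 0.229 ± 0.00286).

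Markers of other cell types also differed between the libraries. Fibroblasts, which served as feeders in the undifferentiated culture, are known to express Hox genes. Their markers summed to 49.8 to 50.6 RPKM in the lanes before and 368 to 376 in those after, from the culture without feeders. Of the 15, 14 were at the floor and 8 were higher, led by Tnc, Col1a1 and Col3a1 (log2 ratios 3.81, 3.33 and 3.02), while Lum was under the floor in both libraries. Col1a1 (133 RPKM after) and Tnc (99.8) made up most of the later sum. Postn, Thy1 and Col6a3 had lower means after (1.63, 2.13 and 1.92 RPKM) than before (2.69, 3.43 and 3.001). Extraembryonic endoderm markers, 10 of 10 higher, went from a lane range of 90.3 to 96.6 RPKM to one of 5469 to 5565. Of 10 hindbrain and spinal cord markers, 4 were at the floor and 2 higher (lane sums 8.08 to 9.14 and 11.6 to 19.5 RPKM), and Nkx6-1, Olig2, Pax7, Dbx1 and Neurog2 were among those under it in both. Mesoderm markers were mixed, with 7 of 10 at the floor, 4 higher and 1 lower, a median log2 ratio of 1.60 at the floor, and lane sums of 74.8 to 76.3 and 36.0 to 44.8 RPKM. The lower sum came from Tcf15 (54.5 and 5.45 RPKM): without it, a value added after the data were seen, lane sums were 20.7 to 21.3 and 30.8 to 39.1. The part of these cell types in the Hox levels was not tested. In bulk RNA, more cells of a type cannot be told apart from more RNA per cell.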

How the data were processed

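Per the labels' protocols, poly(A) RNA of each library was sequenced on 2 lanes, single-end, 36 bp. The authors deposited RPKM values, reads scaled to model length and lane total, for genes, promoters and transcripts. The tables do not name this unit; it was taken from the values, since values of single-exon models times length fell on whole multiples of a constant (84.5% to 86.2% within 5% of a read). Per the submitters' processing notes the build is mm9; the aligner, counting program and annotation were not given in the sources used here. Depth was 31.9 to 37.8 reads per RPKM and kb in each lane, as implied by the value of 1 read. Reads could not be recovered for spliced genes, so no counting interval is given.

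Lane means, log2(RPKM + 1) ratios, counts at 2-fold and model overlaps were computed with Python 3.11.15, pandas 2.3.3 and numpy 2.4.6, and the ratios were tested on simulated data. In overlaps, 2 rows spanning more than 1 Mb (18.4 and 117 Mb) were left out. RefSeq and GENCODE coordinates (GRCm38) were used for upstream sequences alone. With 1 library per state no test was possible.

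Members and lists were chosen with earlier results of these data known. Every Hox gene was a member. Lane values were given for the 3 highest genes of each cluster in the differentiated library and the 2 highest in the undifferentiated library, promoter values for genes with several promoters that sum to 1 RPKM, and up to 3 genes with the largest absolute log2 ratio for each other list; other values were named after being seen. Alternatives varied the pseudocount, floor, scaling, lane, overlap and transcript choice. Values of 3 genes are not reported here.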

Additional observations from a re-analysis of the deposited data

How the results depend on the processing

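The count of 20 Hox genes at least 2-fold higher ranged from 15 to 24 (24 with a pseudocount of 0.1) under the alternatives listed with the design, with none lower, and that of promoters (21) from 17 to 23. Among the 19 genes that overlap no other model, an alternative chosen after seeing the data, the count was 9 of 12, the median over all members was 0.87 and that of Hoxc was 1.13; fewer genes entered it by construction. The median log2 ratio followed the pseudocount, since most undifferentiated levels are near 0. With 0.1 in place of 1 it was 2.74 over all Hox genes (1.20 as reported), and 2.78, 3.81, 3.56 and 1.89 for Hoxa, Hoxb, Hoxc and Hoxd (1.11, 1.99, 1.45 and 0.51 as reported). With 0.5 these were 1.70, 1.63, 2.57, 2.16 and 0.84. Using the highest transcript form they were 0.90, 0.72, 1.70, 0.93 and 0.32. Without genes that overlap another Hox model the medians of Hoxa and Hoxd were 0.67 and 0.65. Equal column sums gave 1.61 for Hoxc and lane 2 alone 1.55 for Hoxb; the cause was not tested. Median centring, upper-quartile scaling and equal sums shifted the median of all genes by -0.11, -0.11 and 0.21. Hoxd13 changed sign under median centring and upper-quartile scaling and in lane 1 alone. Levels near 0.1 RPKM rest on a few reads of a lane, so order among them was not detectable at this depth. No paired analysis was possible because each state is 1 library.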
